A study of Homo sapiens with 12 samples.

Results

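The S100 proteins are small calcium-binding proteins, and 10 genes of the family were followed here in MCF10A cells: S100P, S100A7, S100A8, S100A9, S100A4, S100A2, S100A6, S100A10, S100A11 and S100A14. They are 10 of the 19775 genes named on the arrays. They were taken by symbol, through 13 of the 54675 probe sets, and a gene with several probe sets was read from the one with the highest average log2 intensity. MCF10A is an immortalised human mammary epithelial line. It is labelled as originating from breast cancer, whereas the line is generally described as non-tumorigenic. The cells carried either an eIF4G1 knockdown made with a doxycycline-inducible short hairpin RNA (labelled 4GKD) or were labelled WT, and each genotype was irradiated with 10 Gy or mock-treated. Every one of these 4 conditions gave 3 RNA preparations: heavy polysomes (HMW), light polysomes (LMW) and total RNA (Total). eIF4G1 is the scaffold protein of the complex that recruits ribosomes to the mRNA cap. There was 1 array for each of the 12 combinations, so the array-to-array spread within a group is unknown. The labels do not say whether WT cells received doxycycline or a control hairpin, how many hairpins or clones were used, or how long after irradiation cells were taken.

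S100 proteins work mostly as dimers that bind a partner protein when calcium rises. S100A8 and S100A9 pair to form calprotectin, an antimicrobial metal-binding complex of neutrophils and of stressed squamous epithelium, and S100A7 (psoriasin) is an antimicrobial protein of the same epithelia. S100P is a family member found in placenta and in several carcinomas, S100A4 is known from motile mesenchymal-type cells, and S100A2 is typical of basal epithelial cells.

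S100P lies on chromosome 4. The other 9 genes lie on chromosome 1, and there S100A9, S100A8 and S100A7 sit in a row of coding genes interrupted by S100A12 and S100A7A, followed by S100A6, S100A4, S100A2 and S100A14 with other family members between them. The 100 bases before the start site are shown for the 4 genes whose polysomal level was raised most in knockdown cells (S100P, S100A7, S100A8 and S100A9), for S100A4, which was lower there, and for S100A6 as a member without the motif. They are from RefSeq, build GRCh38.p14, written 5′ to 3′ on the strand of the gene, with the sequence TATAAA in capitals. RefSeq lists 3 starts for S100A8, and the one with the motif is shown.
S100P, chr4:6693778-6693877, plus strand: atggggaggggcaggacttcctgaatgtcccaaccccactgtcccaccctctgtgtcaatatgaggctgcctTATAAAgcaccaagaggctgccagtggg
S100A7, chr1:153460652-153460751, minus strand: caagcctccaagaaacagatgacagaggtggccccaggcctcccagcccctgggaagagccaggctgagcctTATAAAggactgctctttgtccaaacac
S100A8, chr1:153391074-153391173, minus strand: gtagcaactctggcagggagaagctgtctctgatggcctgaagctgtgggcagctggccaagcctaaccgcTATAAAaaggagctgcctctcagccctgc
S100A9, chr1:153357754-153357853, plus strand: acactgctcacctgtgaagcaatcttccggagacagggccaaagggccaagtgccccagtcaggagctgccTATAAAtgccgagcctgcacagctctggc
S100A4, chr1:153545807-153545906, minus strand: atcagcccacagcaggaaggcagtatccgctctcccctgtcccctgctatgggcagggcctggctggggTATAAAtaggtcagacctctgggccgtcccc
S100A6, chr1:153535992-153536091, minus strand: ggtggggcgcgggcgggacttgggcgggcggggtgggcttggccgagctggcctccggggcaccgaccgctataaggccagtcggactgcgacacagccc

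TATAAA, searched on both strands over these 100 bases, was found for 5 of the 10 genes, and in 5 of their 13 listed start windows (38.5%). Of all 35116 RefSeq start windows of the same length, 1753 hold it (4.99%). The match began 28 bases before the start in S100P and S100A7, 29 bases in S100A8 and S100A9, and 31 bases in S100A4. The motif is thus shared by genes that were higher in knockdown polysomes and by S100A4, which was lower, and a match of letters is a description of the sequence alone.

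Values are given as log2 of the deposited intensity, and differences as log2 differences. An intensity depends on the probe set, so levels are compared between arrays and not between genes. The median intensity was alike in all 12 arrays (22.6 to 24.4), in polysomes and in Total. A level is therefore relative to the other RNA of its preparation, and is not an amount of RNA on polysomes. A median difference near 0 over all genes goes with this scaling and is not a result. On such arrays, fewer cells expressing a gene and less of its RNA per cell cannot be told apart. EIF4G1 itself read 7.46 and 7.35 in Total of knockdown cells (10 Gy and mock), against 9.76 and 10.01 in Total of WT cells, a difference of -2.47 (limma, adjusted p = 2.76e-06), and in polysomes the difference was -2.84 (adjusted p = 6.47e-08). Epithelial identity was checked with markers: all 5 basal markers on the array reached a log2 level of 6, and 7 of 8 myeloid markers stayed below 6 in all 12 arrays, CD14 being the exception. The summed intensity of the 8 myeloid markers was 261.6 to 338.5 in knockdown polysomes, against 219.7 to 305.2 in WT polysomes, and 169.4 to 172.6 in knockdown Total, against 234.4 to 253.7 in WT Total. For 5 fibroblast markers, 3 of them below 6 in all arrays, it was 387.5 to 556.2 in knockdown polysomes, against 188.7 to 393.6 in WT polysomes, and 225.6 to 235.4 in knockdown Total, against 152.4 to 177.3 in WT Total. The knockdown cells also differed in epithelial markers. The summed intensity of 6 luminal markers was 11490 to 17090 in knockdown polysomes, against 4648 to 8412 in WT polysomes, and 9896 to 10920 in knockdown Total, against 5712 to 5787 in WT Total. KRT18 held most of these sums, at 9227 to 14420 in knockdown polysomes. Of 5 luminal markers tested, 2 were called higher and 0 lower in knockdown polysomes, against 6.21% and 3.52% of all genes. In Total 3 were called higher and 1 lower, against 20.6% and 19.7%. GATA3 read 7.43 and 7.51 in knockdown Total (10 Gy and mock), against 7.76 and 7.79 in WT Total. For 5 basal markers the sums were 28900 to 38480 in knockdown polysomes, against 15340 to 31660 in WT polysomes, and 21490 to 21660 in knockdown Total, against 24050 to 24250 in WT Total. CDH1, the epithelial cadherin, was 1.20 higher in knockdown Total (limma, adjusted p = 2.48e-05) and was higher in knockdown polysomes too, by a size that is not exact because both WT LMW values lie below 6. The basal markers were split in Total: LAMB3, ITGB4 and CDH1 were called higher in the knockdown, KRT5 and KRT14 lower (limma, adjusted p under 0.05). Over all genes tested, 20.6% were called higher there and 19.7% lower. For the mean of HMW and LMW minus Total, all 5 basal markers were called higher in knockdown cells, against 4.76% of all genes tested. Of the 5 luminal markers tested, 0 were called higher there. The part of these differences in the S100 results was not tested.

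**Figure D1:**
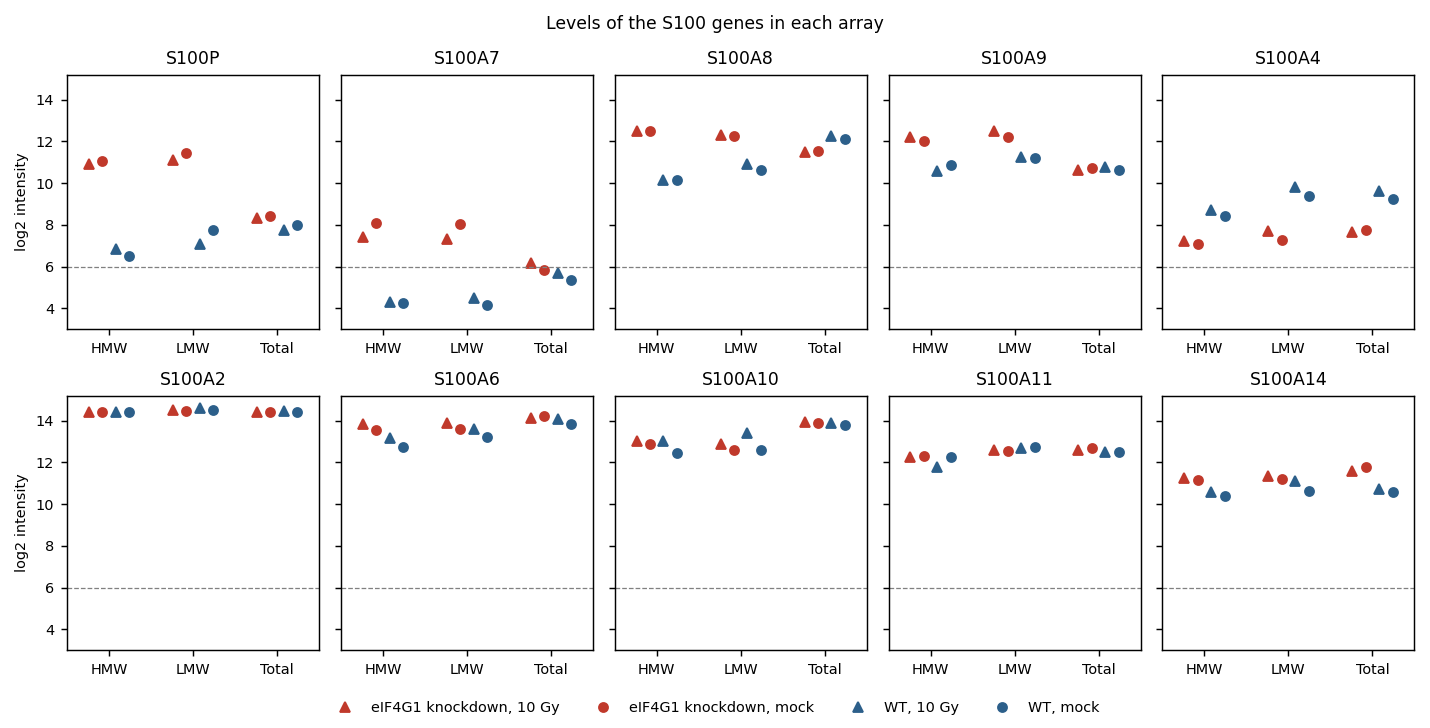
Log2 intensity of each of the 10 S100 genes (vertical axis) in heavy polysomes, light polysomes and total RNA (horizontal axis), 1 point per array, with knockdown arrays in red left of WT arrays in blue, triangles for 10 Gy and circles for mock. The dashed line marks the level of 6 used as the filter. S100P, S100A7, S100A8 and S100A9 stand 0.75 or more above WT in every knockdown polysome array, S100A4 is lower in the knockdown in all 3 preparations, and S100A2 hardly moves.

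In knockdown cells, the messages of S100P, S100A7, S100A8 and S100A9 were higher in polysomes, by 2.43-fold for S100A9 to 16.9-fold for S100P, while in total RNA the differences were at most 1.56-fold and, for S100A8, ran in the opposite direction. Taking the polysomal level as the mean of HMW and LMW, 4 of 9 genes were higher and 1 was lower in knockdown polysomes (limma, Benjamini-Hochberg adjusted p under 0.05). S100A7 is left out of these counts, since it passed the filter on low values (6 or more in at least 4 arrays) through knockdown arrays alone. Over all 10157 genes tested, 6.21% were called higher and 3.52% lower. The median difference of the 9 genes was 0.54, against 0.00 over all genes tested. In Total, 3 of the 9 were higher and 2 lower, where 20.6% of all genes were called higher and 19.7% lower. The Total median was 0.05 for the 9 genes and 0.03 for all genes. These fits compare 2 knockdown with 2 WT values and leave 1 residual degree of freedom. For the polysomal mean, and likewise for its difference from Total tested below, limma took the spread wholly from all genes together. A gene's own scatter therefore does not enter its p-value in either fit. Nothing in the labels says that arrays came from separate cultures, and p-values measure the spread between these arrays alone.

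S100P showed the largest fitted polysomal difference of the family, though the size for S100A7 is not exact because its WT polysome values lie below 6. Its level in HMW was 10.90 (10 Gy) and 11.07 (mock) in knockdown cells, against 6.84 and 6.49 in WT cells. In LMW it was 11.09 and 11.43 in knockdown cells, against 7.08 and 7.77 in WT cells. In Total the levels were 8.34 and 8.44 in knockdown cells, against 7.75 and 7.98 in WT cells. The knockdown and WT arrays thus did not overlap in any preparation, but the gap was 3.13 in polysomes and 0.36 in Total. In Total only 2 arrays are set against 2, and S100A2 and S100A11 also separated there without a call. The share of all genes without overlap was not counted. The difference was 4.08 ± 0.45 (SE) in polysomes (16.9-fold; adjusted p = 1.64e-16) and 0.53 ± 0.10 in Total (1.44-fold; adjusted p = 0.00290). In WT cells S100P RNA was lower in polysomes than in Total, whereas in knockdown cells it was higher in polysomes. Polysomes minus Total averaged 2.73 in knockdown cells and -0.82 in WT cells, a difference of 3.55 ± 0.47 (adjusted p = 3.23e-11).

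S100A7, the antimicrobial psoriasin, followed the same order at lower intensities. It read 7.44 and 8.11 in knockdown HMW (10 Gy and mock), against 4.32 and 4.26 in WT HMW, and 7.33 and 8.06 in knockdown LMW, against 4.49 and 4.14 in WT LMW. In Total it read 6.16 and 5.86 in knockdown cells, against 5.72 and 5.34 in WT cells. S100A7 reached the level of 6 in the 4 knockdown polysome arrays and in 1 knockdown Total array, and passed the filter through them, so it had to be high there. Its tests are therefore given from the fit of all 19775 genes with no filter, which called 3.43% of genes higher in knockdown polysomes and 2.82% higher in polysomes minus Total. The polysomal difference was 3.43 (limma, adjusted p = 2.23e-26), and because all 4 WT polysome values lie below 6, it is not an exact size. The difference in polysomes minus Total was 2.95 (adjusted p = 1.38e-15). In Total it was 0.48 and did not pass the test (adjusted p = 0.0573).

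The calprotectin subunits S100A8 and S100A9 were higher in knockdown polysomes but not in knockdown total RNA. S100A8 read 12.49 and 12.50 in knockdown HMW (10 Gy and mock), against 10.15 and 10.14 in WT HMW, and 12.29 and 12.26 in knockdown LMW, against 10.92 and 10.65 in WT LMW. In Total the order was turned round, with 11.51 and 11.55 in knockdown cells, against 12.26 and 12.09 in WT cells. The knockdown and WT arrays did not overlap in either kind of preparation, with only 2 arrays against 2 in Total. S100A8 rose by 1.93 ± 0.28 in polysomes (3.80-fold; adjusted p = 1.23e-09) and fell by 0.64 ± 0.08 in Total (1.56-fold; adjusted p = 0.000200). Its RNA was lower in polysomes than in Total in WT cells and higher in polysomes in knockdown cells, with polysomes minus Total averaging 0.86 in knockdown cells and -1.71 in WT cells. The difference between those values was 2.57 ± 0.30 (adjusted p = 7.01e-15).

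S100A9 read 12.22 and 12.01 in knockdown HMW (10 Gy and mock), against 10.56 and 10.86 in WT HMW, and 12.51 and 12.23 in knockdown LMW, against 11.26 and 11.18 in WT LMW. In Total it read 10.61 and 10.71 in knockdown cells, against 10.78 and 10.62 in WT cells, and there the groups overlapped. The polysomal arrays did not overlap, with a gap of 0.75. The difference was 1.28 ± 0.30 in polysomes (2.43-fold; adjusted p = 0.000655) and -0.04 ± 0.09 in Total (adjusted p = 0.741). Polysomes minus Total averaged 1.59 in knockdown cells and 0.27 in WT cells, a difference of 1.32 ± 0.32 (adjusted p = 0.00181). S100A9 was thus the member of the pair that was above Total in LMW in all 4 conditions, and its partner was above Total in LMW of knockdown cells only.

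With S100A7 left out again, the test of polysomes minus Total called 3 of the 9 genes higher in knockdown cells and 0 lower, against 4.76% and 0.394% of all genes tested. Without adjustment, 4 of the 9 had p under 0.05 in the higher direction and 0 in the lower, against 15.4% of all genes in either direction. S100P, S100A8 and S100A9 kept this call under every alternative that gave a value, as they did for polysomes alone. The labels do not say whether the Total and polysome preparations came from the same cultures. The part of the preparation in these differences was not tested.

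**Figure D2:**
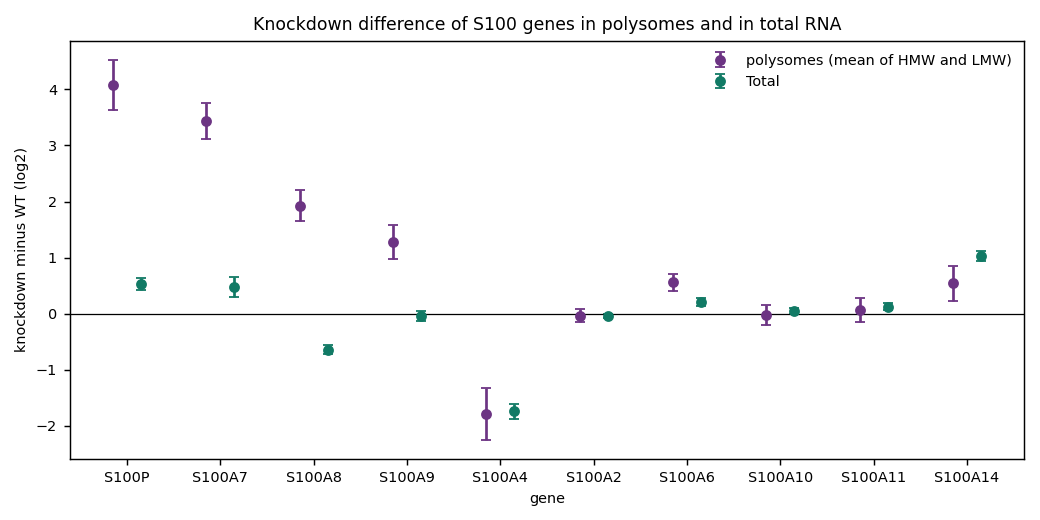
Fitted knockdown minus WT difference on the log2 scale (vertical axis) for each gene in polysomes (purple) and in total RNA (green), with standard errors as bars. All bars, that of S100A7 included, are from the filtered fit. S100P, S100A7, S100A8 and S100A9 lie between 1.28 and 4.08 in polysomes and between -0.64 and 0.53 in Total, while S100A4 lies at -1.78 in polysomes and -1.74 in Total.

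S100A4, a binder of non-muscle myosin, was lower in knockdown cells wherever it was measured. It read 7.21 and 7.06 in knockdown HMW (10 Gy and mock), against 8.73 and 8.42 in WT HMW, and 7.69 and 7.26 in knockdown LMW, against 9.80 and 9.40 in WT LMW. In Total it read 7.64 and 7.74 in knockdown cells, against 9.63 and 9.23 in WT cells. All 6 knockdown values lie below all 6 WT values. The difference was -1.74 ± 0.13 in Total (3.34-fold lower; adjusted p = 1.6e-05) and -1.78 ± 0.46 in polysomes (3.44-fold lower; adjusted p = 0.00249). Polysomes minus Total averaged -0.38 in knockdown cells and -0.34 in WT cells, a difference of -0.04 ± 0.47 (adjusted p = 0.980). Its polysomal RNA was therefore lower by about as much as its total RNA, unlike the calls of S100P, S100A7, S100A8 and S100A9, although the standard error leaves a wide range.

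S100A14 and S100A6 were the other members with a knockdown call. S100A14, an epithelial family member, read 11.60 and 11.77 in knockdown Total (10 Gy and mock), against 10.74 and 10.57 in WT Total, which is 1.03 ± 0.10 higher (2.04-fold; adjusted p = 4.4e-05). In HMW it read 11.24 and 11.15 in knockdown cells, against 10.60 and 10.42 in WT cells, and in LMW 11.34 and 11.22, against 11.13 and 10.64 in WT cells. The polysomal arrays were separated by just 0.02, and the polysomal difference of 0.54 ± 0.32 did not pass the test (adjusted p = 0.336), though it did when the 8 polysome arrays were fitted with the preparation as a term (adjusted p = 0.0324). S100A6, whose product binds annexins and the calcyclin-binding protein, read 13.85 and 13.58 in knockdown HMW, against 13.18 and 12.72 in WT HMW, and 13.91 and 13.60 in knockdown LMW, against 13.60 and 13.21 in WT LMW. In Total it read 14.11 and 14.25 in knockdown cells, against 14.07 and 13.86 in WT cells. The highest probe set of these Total arrays read 14.51 to 14.56, which leaves limited room to record a higher level of S100A6. Its differences were small, 0.56 ± 0.15 in polysomes (adjusted p = 0.00451) and 0.21 ± 0.07 in Total (adjusted p = 0.0399). Both lost their call under some alternatives, with adjusted p up to 0.787 in polysomes when all its probe sets were combined by their median, and 0.224 in Total when the variance trend was left out.

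S100A2, S100A10 and S100A11 were not called for the knockdown in Total or in polysomes. With the median of its probe sets, however, S100A10 was called higher in knockdown Total (0.35, adjusted p = 0.0303, against 0.05 from its main probe set). S100A2 ranged over 14.40 to 14.53 in knockdown arrays and 14.42 to 14.63 in WT arrays. Its reading was within 0.27 of the highest probe set value of every array, so these arrays leave little room to record a higher level. S100A10, the annexin A2 partner, had polysomal means of 12.85 in knockdown cells and 12.87 in WT cells. S100A11, an annexin A1 partner, had polysomal means of 12.43 in knockdown cells and 12.37 in WT cells. Their polysomal differences were -0.02 ± 0.17 and 0.06 ± 0.22, so shifts of the size seen for S100P are far outside their standard errors, while small ones are not.

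The comparison of heavy with light polysomes asks how a message is spread over ribosome numbers. Per the labels of the WT mock pools, LMW holds RNA with 1 to 3 ribosomes, and HMW RNA with 4 or more. As background, members of this family encode short proteins, and a short coding region has room for few ribosomes. Of the 10 genes, 3 were lower in HMW than in LMW and 0 were higher (limma over 8 arrays with the condition as a block), while 21% of all genes were called lower and 19.7% higher. Without adjustment, 4 were lower and 0 higher at p under 0.05. The median of the family was -0.24, against -0.06 over all genes tested, and 1 of the 10 differences was above 0, against 46.2% of all genes.

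S100A4 was -0.48 and -0.20 in knockdown cells (10 Gy and mock) and -1.07 and -0.98 in WT cells, on average -0.68 ± 0.18 (adjusted p = 0.0241). S100A11 was -0.32 and -0.22 in knockdown cells and -0.94 and -0.50 in WT cells, on average -0.50 ± 0.14 (adjusted p = 0.0264). S100A9 was -0.29 and -0.21 in knockdown cells and -0.71 and -0.33 in WT cells, on average -0.38 ± 0.13 (adjusted p = 0.0475). Each of these genes was lower in HMW in all 4 conditions. The calls are not firm: without the WT mock pair the adjusted p of S100A4 was 0.104 and that of S100A11 was 0.0918, without the knockdown 10 Gy pair that of S100A11 was 0.0513, and S100A9 lost its call without any 1 of the 4 pairs (adjusted p 0.0735 to 0.128). S100A10 averaged -0.00 ± 0.13 over conditions of opposite sign, 0.17 and 0.32 in knockdown cells and -0.38 and -0.11 in WT cells.

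The heavy-to-light difference was itself higher in knockdown cells for 3 of the 10 genes and lower for 0, against 5.01% and 9.57% of all genes tested. S100A8 was 0.21 and 0.24 in knockdown cells (10 Gy and mock), against -0.77 and -0.51 in WT cells, a difference of 0.86 ± 0.20 (adjusted p = 0.00595). S100A10 differed by 0.49 ± 0.13 (adjusted p = 0.0141). S100A6 was -0.05 and -0.03 in knockdown cells, against -0.42 and -0.49 in WT cells, and differed by 0.42 ± 0.11 (adjusted p = 0.0170). The fitted difference was above 0 for all 10 genes, against 49.5% of all genes tested, with a median of 0.43 for the family and -0.01 for all genes. The single-gene calls depend on the processing: all 3 were lost with the median of probe sets, without _x_at and _s_at probe sets, and without the variance trend (adjusted p 0.0595 for S100A8 in the last), and their direction was kept. S100A6 and S100A10 also lost theirs under quantile normalisation (adjusted p 0.0651 and 0.0526), and S100A6 with no filter (adjusted p 0.0610). For S100A7, counted here from the filtered fit, the WT values behind this difference are below 6 in both pools. Without it, all 9 differences were above 0, with a median of 0.44.

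**Figure D3:**
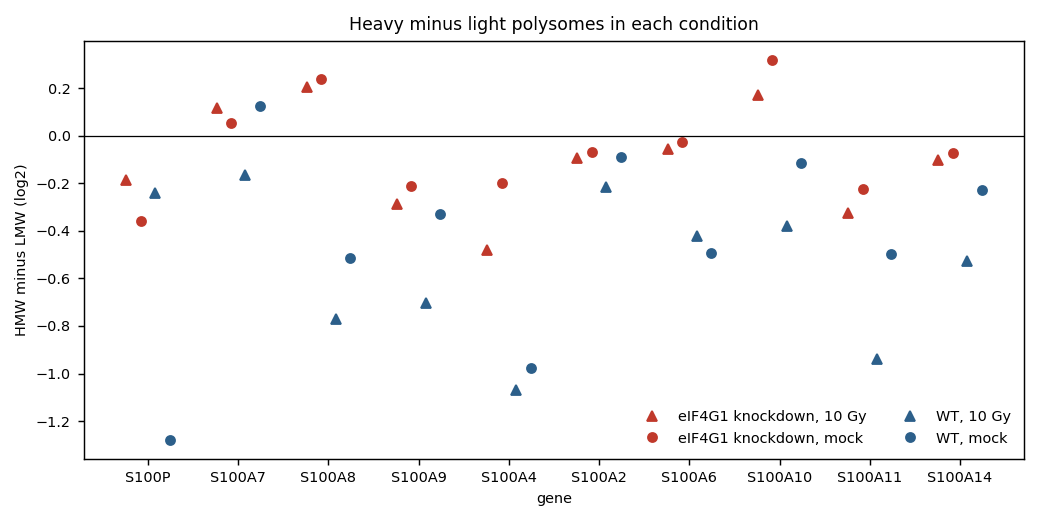
HMW minus LMW on the log2 scale (vertical axis) for each gene, 1 point per condition, with knockdown in red and WT in blue, triangles for 10 Gy and circles for mock. The knockdown points of S100A8 and S100A10 lie above 0 and their WT points below, and S100A4, S100A9 and S100A11 lie below 0 in all 4 conditions.

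Against total RNA, the calls fell on other members. In HMW, 4 of the 10 genes were lower than in Total and 0 higher, against 18.8% and 17.1% of all genes tested, and without adjustment 5 were lower and 1 higher at p under 0.05. The 4 were S100A10 (-1.02 ± 0.09, adjusted p = 0.000673), S100A6 (-0.74 ± 0.13, adjusted p = 0.00442), S100A4 (-0.70 ± 0.17, adjusted p = 0.0173) and S100A11 (-0.42 ± 0.11, adjusted p = 0.0186). Each was lower in all 4 conditions. S100A4 and S100A11 lost the call without the knockdown mock pair (adjusted p 0.0679 and 0.0522) or without the WT 10 Gy pair (adjusted p 0.0877 and 0.0859), and S100A11 also without the variance trend (adjusted p 0.0780). In LMW, S100A10 (-1.02 ± 0.15, adjusted p = 0.00186) and S100A6 (-0.49 ± 0.11, adjusted p = 0.00751) were lower than in Total, and S100A9 was higher (1.12 ± 0.27, adjusted p = 0.00896). That makes 2 lower and 1 higher of 10, against 28.1% and 28.6% of all genes tested. S100A6 lost this call without the variance trend (adjusted p = 0.0554). For S100P, S100A7 and S100A8 a mean over conditions hides opposite signs. HMW minus Total was 2.57 and 2.63 for S100P in knockdown cells and -0.91 and -1.49 in WT cells, and for S100A8 it was 0.98 and 0.95 in knockdown cells and -2.11 and -1.96 in WT cells.

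S100A10 was below Total in both polysome pools of all 4 conditions, by amounts that varied. In HMW it read 13.05 and 12.89 in knockdown cells (10 Gy and mock) and 13.03 and 12.47 in WT cells, and in LMW 12.88 and 12.57 in knockdown cells and 13.41 and 12.58 in WT cells. In Total it read 13.93 and 13.88 in knockdown cells and 13.91 and 13.79 in WT cells. Every polysome array was below every Total array. S100A11 read 12.28 and 12.32 in knockdown HMW and 11.76 and 12.26 in WT HMW, 12.60 and 12.54 in knockdown LMW and 12.70 and 12.76 in WT LMW, and 12.61 and 12.67 in knockdown Total and 12.51 and 12.51 in WT Total. It stood lower in HMW than in the other preparations.

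S100A8, S100A10 and S100A6 each have another probe set. The other one of S100A8 read lower but followed the same pattern, at 7.23 and 7.29 in knockdown HMW (10 Gy and mock), against 5.37 and 4.85 in WT HMW, and at 6.07 and 5.94 in knockdown Total, against 6.70 and 6.55 in WT Total. Its knockdown difference was 1.75 in polysomes and -0.62 in Total. Neither size is exact, because all 4 WT polysome values and the knockdown mock Total value lie below 6. The other probe set of S100A10 read 8.30, 7.65, 7.49 and 7.19 in the 4 Total arrays but 3.67 to 4.38 in all 8 polysome arrays. In polysomes it is thus below the level of 6, and no size is given for its difference. The other probe set of S100A6 was below 6 in 11 of 12 arrays. Which transcripts the weaker probe sets measure was not tested.

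**Figure D4:**
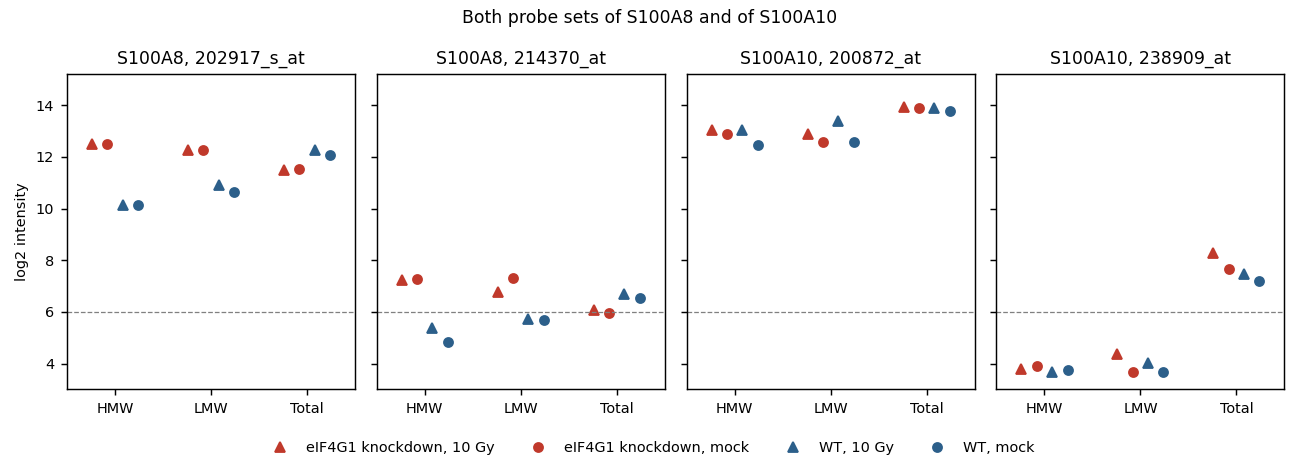
Log2 intensity (vertical axis) of the 2 probe sets of S100A8 and of S100A10 in each preparation (horizontal axis), 1 point per array, with knockdown in red and WT in blue, triangles for 10 Gy and circles for mock. Both S100A8 probe sets are higher in knockdown polysomes and lower in knockdown Total, and the weaker S100A10 probe set is at or below 4.38 in every polysome array and at or above 7.19 in every Total array.

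Irradiation with 10 Gy moved none of the 10 genes past the threshold in Total, in polysomes, in polysomes minus Total or in HMW minus LMW (limma). Few of the 10157 genes were called at all, with 0.128% in Total, 0.354% in polysomes, 0.0886% in polysomes minus Total and 0% in HMW minus LMW. Without adjustment, p was under 0.05 for 2 members in polysomes and the same 2 in polysomes minus Total, S100A10 and S100A6, and for 0 members in Total and in HMW minus LMW. Over all genes that share was 7.01% in polysomes, 5.7% in polysomes minus Total, 12.8% in Total and 5.53% in HMW minus LMW. In polysomes S100A10 was 0.46 ± 0.17 higher after 10 Gy (adjusted p = 0.357), and S100A6 0.36 ± 0.15 (adjusted p = 0.512), each higher in both genotypes. S100A7 differed in sign between genotypes in polysomes: 10 Gy minus mock was -0.67 in HMW and -0.73 in LMW of knockdown cells, and 0.06 and 0.35 in WT cells, whose levels are below 6. With 1 array per group that difference between genotypes was not tested.

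The 10 other S100 genes listed beside these were mostly weak on the arrays. S100A3, S100A13 and S100A16 passed the filter, and the other 7 did not, among them S100A12 and S100A7A, which lie between S100A9, S100A8 and S100A7 on the chromosome. In Total 2 of the 3 were lower in knockdown cells, S100A3 by -0.81 ± 0.16 (adjusted p = 0.00271) and S100A16 by -0.22 ± 0.06 (adjusted p = 0.0133), and 0 were higher, against 19.7% lower and 20.6% higher over all genes. In polysomes 0 of the 3 were called (limma, 1 with p under 0.05 unadjusted), with S100A3 at -0.83 ± 0.42 (adjusted p = 0.240). S100A13 was at 0.09 ± 0.35 there and S100A16 at -0.40 ± 0.20, so none of the 3 was called higher as S100P, S100A7, S100A8 and S100A9 were.

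Partners and receptors of S100 proteins were covered by 12 genes, of which 10 were tested. In knockdown polysomes 4 were higher and 0 lower, against 6.21% and 3.52% of all genes tested. The 4 were IQGAP1, a scaffold protein that binds S100P, by 2.22 ± 0.46, MYH9, the myosin heavy chain bound by S100A4, by 2.02 ± 0.45, AHNAK, which binds the S100A10 and annexin A2 complex, by 1.83 ± 0.41, and ANXA1, the S100A11 partner, by 0.70 ± 0.23 (adjusted p 7.28e-05 to 0.0310). IQGAP1 read below 6 in both WT mock polysome arrays, so its size is not exact. Another probe set of AHNAK went the other way in polysomes. It read 6.25 and 6.45 in knockdown HMW (10 Gy and mock), against 6.57 and 7.19 in WT HMW. In LMW it read 6.78 and 6.95 in knockdown cells, against 7.08 and 7.90 in WT cells. In Total 1 was higher (ANXA1, 0.32) and 3 were lower (EZR at -0.32, CACYBP at -0.22 and ANXA2 at -0.16), against 20.6% and 19.7% of all genes. The receptor gene AGER, which encodes RAGE, differed by 0.36 ± 0.31 in polysomes (adjusted p = 0.567), and BSG, a receptor for S100A9, by 0.85 ± 0.44 (adjusted p = 0.242). Of these partners 5 were higher in HMW than in LMW and 0 lower, against 19.7% and 21% of all genes.

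The S100A genes sit beside the epidermal differentiation complex, whose SPRR and LCE genes encode cornified envelope proteins. Of 27 genes listed, 5 passed the filter, SPRR1A by way of the knockdown polysome arrays. Of the other 4, 1 was higher (SPRR1B) and 1 lower (LCE3D) in knockdown polysomes, against 6.21% and 3.52% of all genes, and 1 was higher (LCE1B, 0.42) and 1 lower (LCE3D, -0.71) in knockdown Total, against 20.6% and 19.7%. SPRR1B read 8.99 and 9.96 in knockdown HMW (10 Gy and mock), against 5.87 and 6.34 in WT HMW, and 5.59 and 6.14 in knockdown Total, against 5.78 and 5.65 in WT Total. It was 3.13 ± 0.43 higher in knockdown polysomes (8.78-fold; adjusted p = 1.34e-10), where 1 of the 4 WT polysome values lies below 6. SPRR1A read 6.92 to 7.94 in knockdown polysomes, against 5.40 to 6.33 in WT polysomes, with 3 of those 4 below 6. LCE3D was lower in knockdown polysomes, by -1.42 ± 0.40 (adjusted p = 0.00786), a size that is not exact because both knockdown HMW values lie below 6. Both SPRR genes had their highest readings in knockdown polysomes, as S100P and S100A7 had, but their lowest reading in Total, whereas that of S100P and of S100A7 was in WT polysomes.

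The genes whose level over the 12 arrays was most like that of the 4 polysomal risers, by Pearson correlation among the 10157 genes tested, were these, 3 for each. For S100P they were AQP3, a glycerol and water channel (r = 0.973), S100A7 (0.956) and ASS1, an enzyme of arginine synthesis (0.947). For S100A7 they were LYPD3 (0.964), S100P (0.956) and ASS1 (0.948). For S100A9 they were ABCG1 (0.952), the epithelial transcription factor ELF3 (0.945) and ID2 (0.941), and for S100A8 they were PNRC1 (0.927), HSD17B2 (0.916) and ZBED6 (0.889). The 12 arrays share 4 conditions and are no independent points. ABCG1, ELF3 and ID2 reached the level of 6 in the 4 knockdown polysome arrays alone and entered the comparison through them, so a high correlation with S100A9 was partly set by the filter. AQP3 and S100A7 reached 6 in knockdown arrays alone, so their high correlations with S100P were partly set by the filter too.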

How the data were processed

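RNA of 12 samples was measured on arrays, 1 per group. The deposited values are intensities on a linear scale, made with RMA per the submitters' processing notes. Its version and whether all arrays entered 1 run are not stated in the labels. The number of arrays limits the precision. Log2 was taken from the deposited intensities. Of 54675 probe sets, 41097 had 1 symbol (1801 had several, 11777 were not listed), giving 19775 genes. Genes at 6 or more in at least 4 arrays were kept (10157, all 10 members). S100A7 passed through knockdown arrays alone, so its knockdown p-values in Total, polysomes and polysomes minus Total come from the fit with no filter.

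Tests used limma 3.58.1 in R 4.3.3 (eBayes with trend, Benjamini-Hochberg at 0.05, over all 10157 genes), after a test on simulated data. Preparations were compared with the condition as a block (3 residual degrees of freedom). Knockdown and 10 Gy were fitted additively (1 residual degree of freedom). The named genes are the 10 members, called genes of the listed partners and neighbours, and the 3 best correlates of each riser. The members and lists were chosen with earlier results of these data known. A planned use of protein lengths was not carried out, and protein sequences were not used here. Alternatives covered the filter, probe set choice, normalisation, variance trend, block and single pairs.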

Additional observations from a re-analysis of the deposited data

Results flagged for a closer look

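For 7 results the effect of the knockdown differed between preparations by a test of that difference (limma, adjusted p under 0.05). With S100A7 left out, 3 of 9 genes were called higher and 0 lower in polysomes minus Total, against 4.76% and 0.394% of all genes tested. In HMW minus LMW 3 of these 9 were called higher and 0 lower, against 5.01% and 9.57%. The knockdown difference was larger in polysomes than in Total by 3.55 for S100P, 2.95 for S100A7, 2.57 for S100A8 and 1.32 for S100A9. S100A7 passed the filter through knockdown arrays alone, and its difference was also called with no filter (adjusted p = 1.38e-15). For S100A8 the 2 effects have opposite signs, 1.93 in polysomes and -0.64 in Total. The knockdown difference was larger in HMW than in LMW by 0.86 for S100A8, 0.49 for S100A10 and 0.42 for S100A6. All 7 differences had the same sign in both treatments.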

How the results depend on the processing

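No difference of a member changed sign while called, under any of the alternatives. The polysomal and polysomes-minus-Total calls of S100P, S100A8 and S100A9 held under all of them, as did both knockdown calls of S100A4 where its probe set was kept. For S100A7 the filtered alternatives say nothing more, since any filter kept it through knockdown arrays. Both of its calls were made with no filter (limma, adjusted p = 2.23e-26 and 1.38e-15). The labels carry no replicate numbers to pair by, so pairing was by condition alone, as described for the preparations. Counts of genes called that moved by over 1.5 times were these. For the preparations, HMW against Total had 3648 calls and 2329 without _x_at and _s_at probe sets, LMW against Total 5761 and 10541 with no filter, and HMW against LMW 4139 and 52 with no block. Leaving out 1 pair gave 2285 to 4558 for HMW against LMW and 1671 to 4531 for HMW against Total, where some of the counts moved by less. For LMW against Total it gave 4390 to 5500, and no count moved by over 1.5 times. For the knockdown in polysomes, 989 calls became 598 without _x_at and _s_at probe sets, 1524 in LMW alone and 2663 with the 8 arrays and a fraction term. For the knockdown in polysomes minus Total, 523 became 324 with the median of probe sets, 325 without _x_at and _s_at probe sets and 814 with LMW minus Total. For the knockdown in HMW minus LMW, 1481 became 668 with the median of probe sets, 438 without _x_at and _s_at, 784 with quantile normalisation and 957 without the trend. For 10 Gy in Total, 13 became 45 with no filter, 28 with the filter at 7, 6 with the median of probe sets, 6 without _x_at and _s_at, 148 with quantile normalisation, 170 with loess and 0 without the trend. The share of its calls that were higher was 76.9%, against 37.8% with quantile normalisation and 34.7% with loess. For 10 Gy in polysomes, 36 became 100 with no filter, 5 with the filter at 7, 2 with the median, 17 without _x_at and _s_at, 6 with quantile normalisation and 1 with the fraction term. For 10 Gy in polysomes minus Total, 9 became 36 with no filter, 0 with the filter at 7, 1 with the median, 0 without _x_at and _s_at, 0 with quantile normalisation, 23 with HMW minus Total and 3 with LMW minus Total. For 10 Gy in HMW minus LMW, 0 became 1 with no filter. Without the block S100A4, S100A9 and S100A11 also lost their call between HMW and LMW (adjusted p 0.503, 0.596 and 0.154), and S100A4 that between HMW and Total (0.350). The cause was not tested. Quantile normalisation moved the median of all genes by over 0.1 in LMW against Total, to 0.18 from 0.01, and under it S100P was called lower in HMW than in LMW (-0.64, adjusted p = 0.0368) and higher in LMW than in Total (1.44, adjusted p = 0.0448). Depth has no counterpart here, and levels below 6, as for S100A7 in WT polysomes, limit the size of a ratio.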

Other observations

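Other short sequences were looked for before the start sites of the 10 genes, on both strands. TGANTCA was found within 250 bases for 1 of the 10 genes, S100A2, and in 6.57% of all RefSeq start windows. CCAAT was found within 100 bases for 0 of the 10 genes, and in 18.1% of all windows.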
